A study of Mus musculus with 68 samples.

Results

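Small nucleolar RNAs (snoRNAs) were followed across 68 Affymetrix gene arrays of mouse motor neurons made from embryonic stem cells. The members were all array features, called transcript clusters, that the platform annotation ties to exactly 1 gene symbol starting with Snord or Snora. There were 56 such clusters for 51 genes among the 21789 clusters with a single symbol, out of 35556 clusters on the array. Of these, 33 clusters stood for 31 C/D genes (Snord) and 23 for 20 H/ACA genes (Snora). A pair of clusters stood for each of 5 genes (Snora3, Snora21, Snora30, Snord58b and Snord118), and the values of the Snora30 pair and of the Snord118 pair were identical in every array. A further 41 clusters that join a snoRNA symbol to other symbols were left out.

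SnoRNAs are short RNAs of the nucleolus that guide chemical modification of other RNAs, chiefly ribosomal RNA. C/D snoRNAs guide 2′-O-methylation and work with the proteins fibrillarin, Nop56, Nop58 and Snu13, whereas H/ACA snoRNAs guide pseudouridylation and work with dyskerin, Nop10, Nhp2 and Gar1. Most mammalian snoRNAs are cut from introns of genes for ribosomal proteins, nucleolar proteins or noncoding RNAs, and many of those host genes start transcription in a pyrimidine tract. Malat1, a long noncoding RNA that stays in nuclear speckles, is set beside them throughout.

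The series was a gain-of-function screen for determinants of phrenic motor neurons, the neurons that drive the diaphragm. C57/BL6 embryonic stem cell lines grew as embryoid bodies and were patterned from day 2 by retinoic acid with an agonist of Smoothened. They were dissociated and sorted magnetically on day 5 for a CD2 or CD14 surface reporter of motor neurons. Doxycycline then induced 1 or 2 candidate factors, or YFP as the control, for 30 hours on matrigel. NERT (10) and Notch1 ICD (10) were induced for the last 10 hours alone, and NERT (30) and Notch1 ICD (30) for 30 hours. The lines named below carried YFP, Pou3f1, Pou3f1-FLAG, Pou3f1;Hoxa5, Pou3f1;Hoxc6, Pou3f1;DNLhx3, Pou3f1;Lhx3, NERT (10) or NERT (30) with the CD14 reporter (23 arrays, with the E3 parental line, induced or not). The CD2 reporter lines (45 arrays) were YFP, Pou3f1, Hoxa5, Hoxc6, Lhx3, DNLhx3, Notch1 ICD (10), Notch1 ICD (30), Klf5, Zic1, Hey1, Chd5, Arid5b, Btbd3, Klf6, Sfmbt2, Tox, Vwc2, Zbtb7c and the H4 parental line. The batch is the number in the sample titles; what it stands for is not stated. Batches 1 to 5 held CD2 lines, batch 6 held 13 CD14 and 2 CD2 arrays, batch 7 held 8 CD14 arrays, and 2 induced E3 parental arrays formed batch 0. Nothing in the labels says whether replicates came from separate cultures or how many clones a line represents, so p-values measure the spread between these samples only.

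Across the 68 arrays the median value of all single-symbol clusters lay between 8.19 and 8.42 in batches 1 to 7 and at 7.86 and 7.87 in the batch 0 pair, labelled E3 parental induced, a group found in no other batch, which informs no difference below. The mean log2 value of 9 motor neuron markers in the 13 CD14 arrays of batch 6 was 10.59 to 10.63 in Pou3f1;DNLhx3 and 11.1 to 11.42 in the other lines, and 3 pluripotency markers averaged 5.65 to 6.65 over all arrays. One label check bears on a result below. Of the 9 arrays of batch 4, 6 gave Hoxa5 values from 12.14 to 12.75, and 1 of these 6 is labelled as a Hoxa5 line. In bulk RNA, fewer cells of a type and less RNA per cell cannot be told apart.

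All 51 genes matched the RefSeq table of GRCm38.p6. Snord118 lay inside no other gene, 47 genes lay inside exactly 1 and 3 lay inside 2. The 43 spanning genes were 33 protein-coding and 10 long noncoding genes, and 25 of them had a cluster of their own. Strand was not checked, and whether the probes of intronic snoRNAs also read host pre-mRNA was not tested.

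Promoter windows of 6 spanning genes are shown because their snoRNAs are among the C/D members described in batch 6 below. The genes are Wdr43 (around Snord53), Gas5 (around Snord47), 2410006H16Rik (around Snord49a and Snord49b), Rpl13a (around Snord33 and Snord35a), Rps3a1 (around Snord73b) and Rps3 (around Snord15a and Snord15b). Each window runs from 60 bases before to 20 bases after a RefSeq start, 5′ to 3′ on the gene's strand, and capitals mark CTTTC, a short pyrimidine run, where it stands on that strand. Gas5 has a pair of starts in the table. The windows on the plus strand are at chr17:71616155-71616234 (Wdr43), chr1:161034541-161034620 and chr1:161035106-161035185 (Gas5) and chr11:62602817-62602896 (2410006H16Rik). Those on the minus strand are at chr7:45128726-45128805 (Rpl13a), chr3:86142649-86142728 (Rps3a1) and chr7:99483690-99483769 (Rps3), all in GRCm38.p6.
Wdr43: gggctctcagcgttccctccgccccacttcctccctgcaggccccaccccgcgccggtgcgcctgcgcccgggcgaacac
Gas5, upstream start: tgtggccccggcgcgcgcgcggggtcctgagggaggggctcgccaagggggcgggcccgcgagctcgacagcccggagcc
Gas5, downstream start: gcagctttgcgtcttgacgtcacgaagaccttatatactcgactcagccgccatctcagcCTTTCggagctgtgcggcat
2410006H16Rik: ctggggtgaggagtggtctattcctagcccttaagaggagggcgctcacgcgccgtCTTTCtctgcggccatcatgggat
Rpl13a: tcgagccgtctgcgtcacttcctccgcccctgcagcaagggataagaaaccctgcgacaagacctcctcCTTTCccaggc
Rps3a1: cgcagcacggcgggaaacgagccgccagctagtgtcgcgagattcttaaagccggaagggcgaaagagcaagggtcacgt
Rps3: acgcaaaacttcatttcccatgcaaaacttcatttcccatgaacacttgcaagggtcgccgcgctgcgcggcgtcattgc
The run starts at position 1 of the Gas5 transcript at the downstream start, at 4 bases before the start in 2410006H16Rik, and at position 10 in Rpl13a. The windows of Wdr43, Rps3a1 and Rps3 and the upstream Gas5 window do not hold these letters on the gene's strand. CTTTC stood on the gene's strand in 11 of 33 windows of 31 spanning genes, and on either strand in 12. Over 32851 promoter windows of the same length (80 bases), 10.5% held it on the gene's strand and 19% on either strand. A match is a description of the letters and was set against no binding or start-site data.

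The clusters gave signals from the dim end to the bright end of the array, and these signals cannot be ranked as amounts of RNA because each cluster has its own probes. Mean log2 values over the 68 arrays were 12.93 for Snora52, 11.77 for Snord57 and 10.82 for Snord49b at the bright end. They were 3.51 and 3.62 for the pair of Snord58b clusters, 5.17 for Snord38a and 5.48 for Snord73a at the dim end. Over batches 1 to 7 the widest ranges between the lowest and the highest array were 5.67 for Snord57, 4.72 for Snord82 and 3.96 for Snord47. The narrowest were 0.87 for Snord8, 0.95 for Snord55 and 0.97 for Snord22. The median range of the members was 1.87, against 1.02 over all single-symbol clusters, while their median mean level was 7.93 against 8.26.

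**Figure D1:**
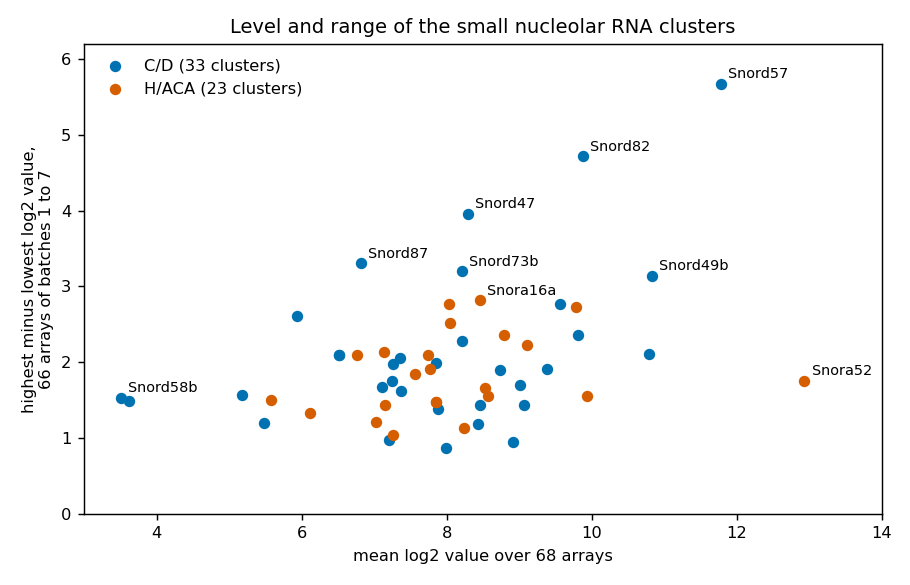
Mean log2 value over the arrays (x axis) against the range between the lowest and the highest array (y axis, log2 units) for the 56 snoRNA clusters, coloured by class. Snord57, with a range of 5.67, and Snord82, with 4.72, stand at the top, and the dim Snord58b clusters at the left.

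The per-array median of the 56 clusters spanned 7.40 to 8.65 in batches 1 to 7. It lay between 7.50 and 8.27 in batch 1, 7.56 and 8.23 in batch 2, 7.46 and 8.00 in batch 3, 7.40 and 8.07 in batch 4, and 7.53 and 7.84 in batch 5. In the CD14 arrays it was 7.72 to 8.40 in batch 6 and 8.18 to 8.65 in batch 7. CD14 lines were in batches 6, 7 and 0, and all but 2 CD2 arrays were in batches 1 to 5, so reporter and batch cannot be told apart for these levels. Batch terms differed for 37 of 56 clusters (66.1%) by limma's moderated F-test at an adjusted p of 0.05, with 50.9% of all clusters called by the same test. The lowest adjusted p-values were those of Snord57 (3.1e-13), Snord82 (5.6e-10), Snord16a (2.2e-06) and Snord73b (2.9e-06).

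The relation of the member median to Malat1 was not the same in each batch. As a description across arrays, which share lines and normalization, Pearson's r was 0.318 over 9 arrays in batch 2, 0.136 over 15 in batch 3, 0.699 over 9 in batch 4 and 0.641 over 6 in batch 5. It was 0.744 over the 15 arrays of batch 6 and 0.858 over the 8 arrays of batch 7, and -0.056 over the 66 arrays of batches 1 to 7. In batches 6 and 7 the arrays with high Malat1 were those of particular lines, described next.

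**Figure D2:**
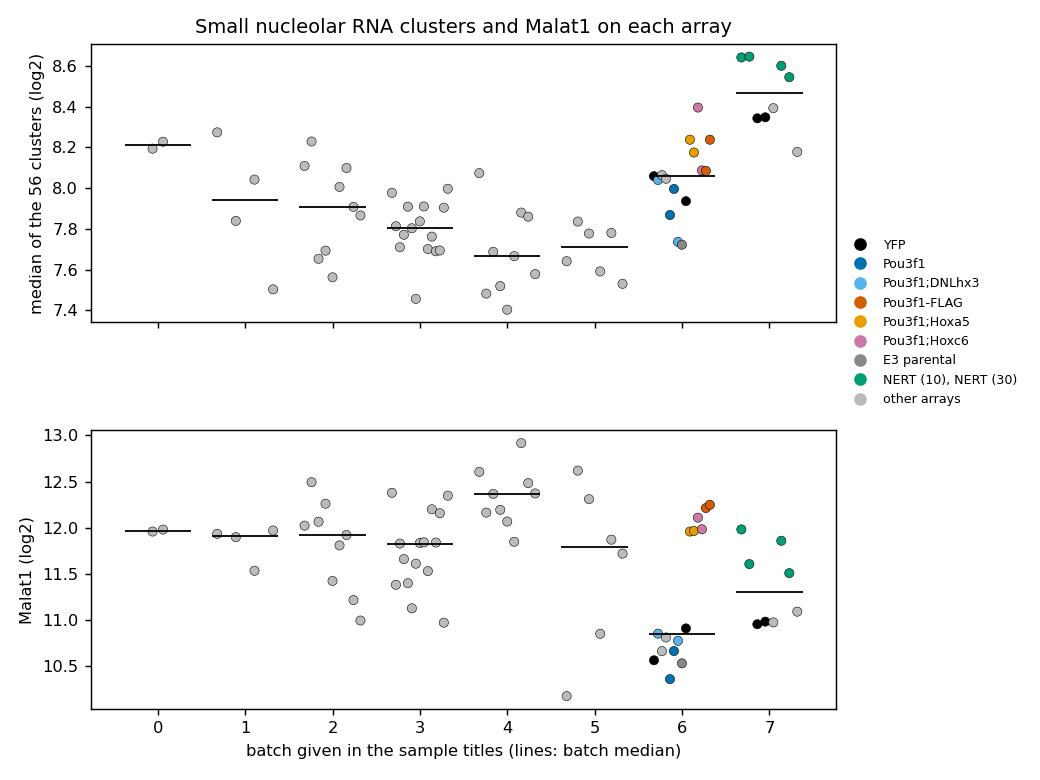
Median log2 value of the 56 snoRNA clusters and the log2 value of Malat1 in every array, by the batch given in the sample titles, with bars at batch medians. Batch 7 holds the highest snoRNA medians (8.18 to 8.65), and within batch 6 the Pou3f1-FLAG, Pou3f1;Hoxa5 and Pou3f1;Hoxc6 arrays hold the highest Malat1 values.

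Within batch 6 the CD14 lines fell into a high and a low range of Malat1. Malat1 read 12.21 and 12.25 in Pou3f1-FLAG, 11.96 and 11.97 in Pou3f1;Hoxa5, and 12.11 and 11.98 in Pou3f1;Hoxc6. It read 10.57 and 10.91 in YFP, 10.67 and 10.36 in Pou3f1, 10.85 and 10.78 in Pou3f1;DNLhx3, and 10.53 in the E3 parental array. No array of the first 3 lines overlapped any array of the other 4. Malat1 was 3.29-fold higher in Pou3f1-FLAG than in Pou3f1 (log2 difference 1.72 ± 0.12, SE, n = 2 and 2, limma adjusted p = 0.0023), and 2.73-fold and 2.89-fold higher in the Hoxa5 and Hoxc6 double lines. Pou3f1-FLAG and these double lines are called the raised lines below, and values for them are given in that order.

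Many snoRNA clusters rose in the same 3 lines. In the order of the samples, the arrays of these lines follow one another after all other batch 6 arrays. Line and place in that order therefore cannot be told apart within batch 6, and what the order stands for is not stated. Against Pou3f1, 21 of 56 clusters rose in Pou3f1-FLAG (background, 6.33% of all clusters higher and 5.97% lower), 21 rose in Pou3f1;Hoxa5 (background 7.34% and 6.86%) and 24 rose in Pou3f1;Hoxc6 (background 14.3% and 9.78%). Limma called 0 lower in each, with 1, 0 and 1 lower at an unadjusted p under 0.05. The median member difference was 0.29, 0.38 and 0.42 on the log2 scale, against medians over all clusters of 0.05, 0.04 and 0.06. Against YFP, 13 clusters rose in Pou3f1-FLAG (background 6.65% higher and 4.88% lower), 10 in Pou3f1;Hoxa5 (background 10.2% and 7.22%) and 17 in Pou3f1;Hoxc6 (background 12.1% and 8.74%). One cluster, Snord57, fell in the last, and limma called 0 lower in the first and the second (3 and 0 at an unadjusted p under 0.05). The member medians there were 0.18, 0.21 and 0.23, against 0.03, 0.01 and 0.05 over all clusters. These comparisons share the Pou3f1 or the YFP arrays, so their counts are not independent of one another.

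In Pou3f1 against YFP limma called 0 of 56 clusters (background 1.48% in either direction), with 0 higher and 6 lower at an unadjusted p under 0.05 and a lowest adjusted p of 0.21. Pou3f1;DNLhx3 gave 0 called clusters against YFP (background 8.28%, with 1 higher and 2 lower unadjusted, lowest adjusted p 0.069) and 0 against Pou3f1 (background 4.93%, with 4 higher and 2 lower unadjusted, lowest adjusted p 0.11). The member medians were -0.16 for Pou3f1 against YFP, -0.05 for Pou3f1;DNLhx3 against YFP and 0.11 for Pou3f1;DNLhx3 against Pou3f1. Across the lines, 26 of 56 clusters (46.4%) differed by the F-test, with 30% of all clusters called. Snord49b (adjusted p = 8.1e-05), Snord15b (1.0e-04), Snord87 (1.2e-04) and Snord53 (1.6e-04) led, and Malat1 stood at 3.5e-05.

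**Figure D3:**
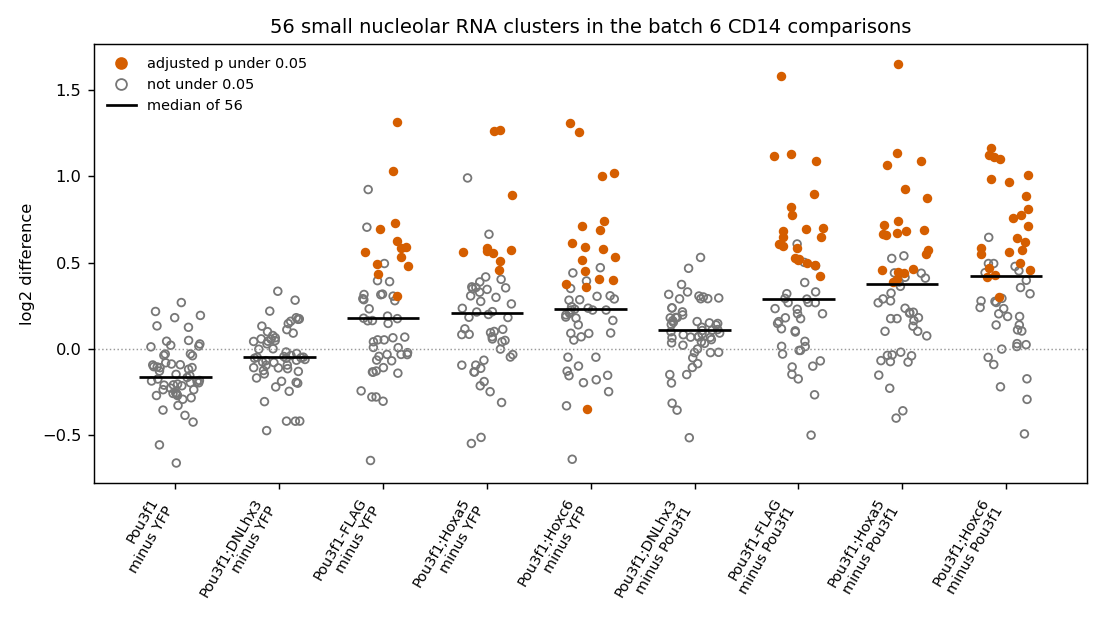
Log2 differences of the 56 snoRNA clusters in the comparisons between CD14 lines of batch 6, with filled points for an adjusted p under 0.05 and a bar at the median. The points for Pou3f1-FLAG, Pou3f1;Hoxa5 and Pou3f1;Hoxc6 against Pou3f1 centre on 0.29, 0.38 and 0.42, and those for Pou3f1 against YFP on -0.16.

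The C/D class held most of the calls. Against Pou3f1, 15 of 33 C/D clusters and 6 of 23 H/ACA clusters rose in Pou3f1-FLAG, and 16 and 5, then 16 and 8, in the other raised lines. Against YFP the counts were 10 and 3, 9 and 1, and 14 and 3. The difference between the classes was not tested.

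Among the C/D snoRNAs, Snord53, which lies in Wdr43, a gene for a small-subunit processing factor, was among the most raised. Its log2 values were 10.73 and 10.83 in Pou3f1-FLAG, 10.65 and 10.82 in Pou3f1;Hoxa5, and 10.94 and 10.61 in Pou3f1;Hoxc6. They were 9.61 and 9.72 in Pou3f1, 9.72 and 9.57 in Pou3f1;DNLhx3, 9.67 and 9.27 in YFP, and 9.27 in the E3 parental array. Every array of the first 3 lines lay above every array of the others, as for Malat1. Against YFP, Snord53 rose 2.48-fold, 2.40-fold and 2.47-fold in the raised lines (log2 differences 1.31, 1.26 and 1.31 ± 0.14, SE, limma adjusted p = 0.0022, 7.7e-04 and 2.8e-04). Against Pou3f1 the differences were 1.12, 1.07 and 1.11.

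Snord87, which lies in the noncoding host Snhg6 and in Mcmdc2, gave the same split. Its values were 7.63 and 7.48 in Pou3f1-FLAG, 7.91 and 7.68 in Pou3f1;Hoxa5, and 7.90 and 7.67 in Pou3f1;Hoxc6, and between 6.39 and 6.72 in the 7 other CD14 arrays. The groups did not overlap. Snord87 was 2.20-fold higher in Pou3f1;Hoxa5 than in Pou3f1 (1.14 ± 0.12, SE, adjusted p = 9.7e-04), 2.18-fold higher in Pou3f1;Hoxc6 (adjusted p = 3.4e-04) and 1.86-fold higher in Pou3f1-FLAG (adjusted p = 0.0048).

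Snord47 lies within Gas5, a noncoding RNA gene known for its many intronic snoRNAs. Snord47 read 9.20 and 9.10 in Pou3f1-FLAG, 9.46 and 9.38 in Pou3f1;Hoxa5, and 9.71 and 9.34 in Pou3f1;Hoxc6. It read 8.57 and 8.51 in Pou3f1, 8.84 and 8.55 in Pou3f1;DNLhx3, 8.64 and 8.40 in YFP, and 8.16 in the E3 array. The lowest array of the 3 raised lines lay above the highest of the others. The rise over Pou3f1 was 1.98-fold in Pou3f1;Hoxc6 (0.99 ± 0.14, SE, adjusted p = 0.0013), 1.84-fold in Pou3f1;Hoxa5 (0.88, adjusted p = 0.0045) and smallest in Pou3f1-FLAG (0.61, adjusted p = 0.023).

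Snord49b shares its noncoding host 2410006H16Rik, whose promoter is printed above, with Snord49a. Its highest values were 12.30 and 12.20, in Pou3f1;Hoxc6. It read 11.84 and 11.69 in Pou3f1-FLAG, 11.81 and 11.78 in Pou3f1;Hoxa5, 11.30 and 11.18 in Pou3f1, 11.33 and 11.22 in Pou3f1;DNLhx3, 11.14 and 11.32 in YFP, and 10.69 in E3. Pou3f1;Hoxc6 thus stood above the other raised lines, and these above the rest. The log2 difference from YFP was 1.02 ± 0.09 (SE, adjusted p = 7.0e-05) in Pou3f1;Hoxc6, 0.57 (adjusted p = 0.0032) in Pou3f1;Hoxa5 and 0.54 (adjusted p = 0.0077) in Pou3f1-FLAG.

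Snord35a and Snord33 sit in the gene of the ribosomal protein Rpl13a. Snord35a read 10.51 and 10.60, 10.39 and 10.64, and 10.66 and 10.52 in the raised lines, above 9.11 to 10.13 in the other 7 CD14 arrays. Against Pou3f1 its differences were 1.13 ± 0.21, 1.09 and 1.17 (SE, adjusted p = 0.012, 0.010 and 0.0042). Against YFP, at 9.94 and 9.76, they were 0.71, 0.67 and 0.74, and limma called the last alone (adjusted p = 0.055, 0.053 and 0.031). Snord33 rose over Pou3f1 by 0.65, 0.66 and 0.97 in the same order, and Snord35b by 1.09, 0.93 and 0.89. Snord35b also rose over YFP, by 0.73, 0.57 and 0.53.

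Snord73b, in the ribosomal protein gene Rps3a1, had the largest differences from Pou3f1 of the members in Pou3f1-FLAG and in the Hoxa5 line, with a wide replicate spread. It read 8.39 and 8.98 in Pou3f1-FLAG, 8.85 and 8.65 in Pou3f1;Hoxa5, and 8.51 and 7.89 in Pou3f1;Hoxc6. Pou3f1 stood at 7.13 and 7.07, Pou3f1;DNLhx3 at 8.01 and 7.12, YFP at 8.12 and 7.40, and E3 at 6.50. The first YFP array overlapped Pou3f1;Hoxc6. Snord73b was 3.00-fold, 3.14-fold and 2.15-fold higher than in Pou3f1 (1.58, 1.65 and 1.10 ± 0.33, SE, adjusted p = 0.019, 0.013 and 0.039), and the difference from YFP of 0.92, 0.99 and 0.44 did not pass (adjusted p = 0.10, 0.070 and 0.38). Its calls against Pou3f1 were lost when either Pou3f1 array was left out.

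Members of smaller but tight differences were Snord15b and Snord15a, both in the ribosomal protein gene Rps3, and Snord104. Snord15b read 8.94 to 9.07 in the 6 arrays of the 3 raised lines and 8.07 to 8.44 in the other 7. Its differences from Pou3f1 were 0.70 ± 0.07 (SE), 0.67 and 0.71, and Snord15a differed from Pou3f1 by 0.60, 0.67 and 0.62. Snord104 read 10.96 to 11.28 in the raised lines against 10.41 to 10.88 in the others. It was 0.65 ± 0.08 (SE) higher in Pou3f1-FLAG than in Pou3f1, 0.46 higher in Pou3f1;Hoxa5 and 0.64 higher in Pou3f1;Hoxc6, all called.

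Among H/ACA snoRNAs, Snora73a and Snora73b, which lie in the noncoding host Snhg3, were called against Pou3f1 in some of the raised lines, and the difference between raised lines was not tested. Snora73a read 9.65 and 9.81 in Pou3f1-FLAG and 9.66 and 9.60 in Pou3f1;Hoxa5, but 9.44 and 9.08 in Pou3f1;Hoxc6, where it overlapped YFP at 9.24 and 9.10. Pou3f1 stood below all of these at 8.95 and 8.87. Snora73a was 0.82 ± 0.13 (SE, adjusted p = 0.0066) above Pou3f1 in Pou3f1-FLAG and 0.72 (adjusted p = 0.0072) above it in Pou3f1;Hoxa5. The 0.36 in Pou3f1;Hoxc6 did not pass (adjusted p = 0.067). Snora73b read 9.46 and 9.43, 9.35 and 9.25, and 9.18 and 8.89 in the raised lines, in that order, 9.16 and 8.74 in YFP, and 8.84 and 8.68 in Pou3f1. It was 0.68 (adjusted p = 0.026) above Pou3f1 in Pou3f1-FLAG, and the 0.54 and 0.28 in the other raised lines did not pass (adjusted p = 0.050 and 0.23). Both clusters of Snora3, in the ribosomal protein gene Rpl27a, rose over Pou3f1 in Pou3f1-FLAG (0.53 and 0.59), whereas in Pou3f1;Hoxa5 1 cluster passed (0.45) and the other did not (0.42, adjusted p = 0.051).

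**Figure D4:**
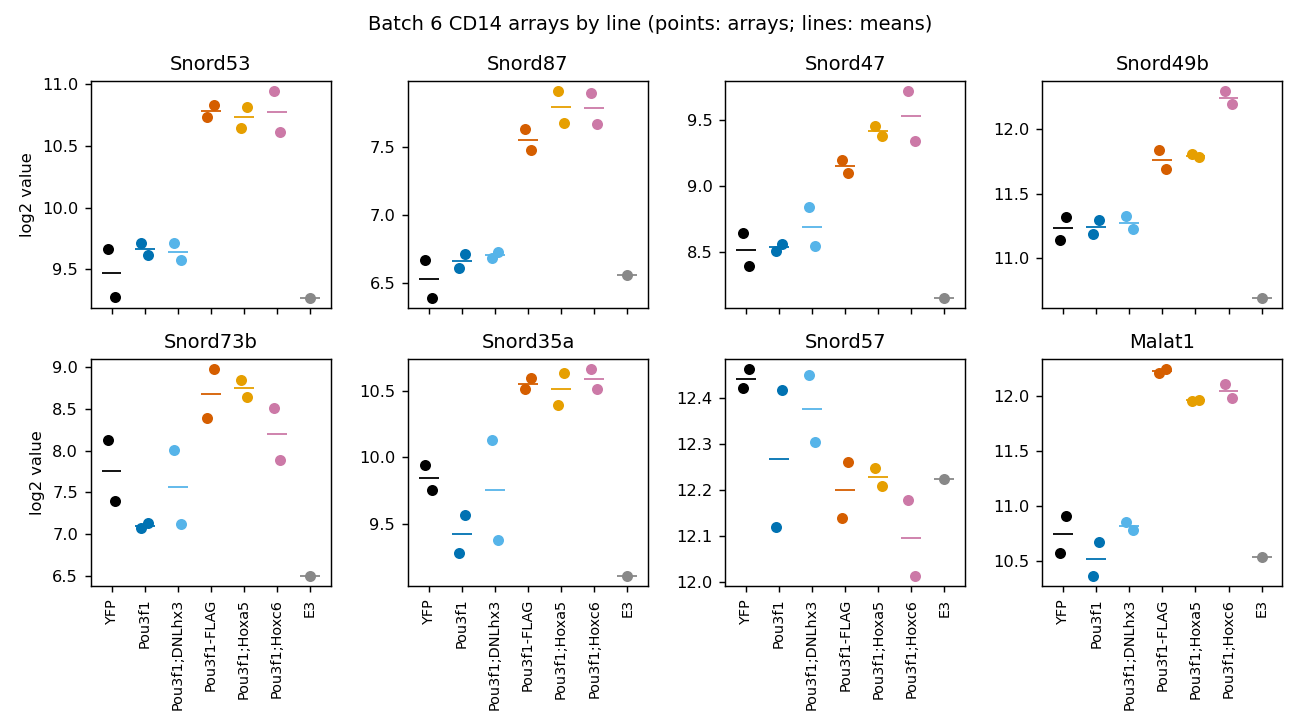
Log2 values of 7 snoRNAs and Malat1 in each CD14 array of batch 6, by line. Snord53 separates Pou3f1-FLAG, Pou3f1;Hoxa5 and Pou3f1;Hoxc6 (10.61 to 10.94) from the other lines (9.27 to 9.72), Snord73b overlaps between lines, and Snord57 stays within 12.01 to 12.46. Each panel has its own y axis, and bars mark line means.

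Other members did not show this split. Snord57 lies in Nop56, a core protein of C/D particles. It read 12.14 and 12.26 in Pou3f1-FLAG, 12.01 and 12.18 in Pou3f1;Hoxc6, and 12.42 and 12.46 in YFP. The other CD14 arrays lay from 12.12 to 12.45. Its difference from YFP in Pou3f1;Hoxc6 was -0.35 ± 0.11 (SE, adjusted p = 0.046). Snord82, which lies in Ncl, the gene of nucleolin, kept within 10.64 to 11.11 across these arrays. Snora41 read 5.34 to 5.74 in the raised lines and 5.61 to 6.37 in the others, with no call.

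The counts depend on single arrays, as each line had 2. Without Pou3f1 replicate 2 the counts against Pou3f1 became 6 for Pou3f1-FLAG, 7 for Pou3f1;Hoxa5 and 14 for Pou3f1;Hoxc6. Without Pou3f1 replicate 1 they were 11 for Pou3f1-FLAG and 13 for Pou3f1;Hoxa5, without Pou3f1-FLAG replicate 2 the first was 11, without Pou3f1;Hoxa5 replicates 2 and 3 in turn the second was 12 and 9, and without Pou3f1;Hoxc6 replicate 1 the third was 14. Against YFP, leaving out YFP replicate 1 or 2 gave 5 or 6 for Pou3f1-FLAG and 7 or 9 for Pou3f1;Hoxc6. Pou3f1-FLAG without its replicate 2 gave 6, Pou3f1;Hoxa5 without replicate 2 or 3 gave 6 each, and Pou3f1;Hoxc6 without replicate 1 gave 6. Pou3f1;DNLhx3 against YFP gave 3 without its replicate 1 and 2 without its replicate 2. Against Pou3f1 it gave 1 without its replicate 1, 4 without its replicate 2, and 1 without either Pou3f1-FLAG array. When all 68 arrays were fitted with line and batch terms, the counts for the raised lines were 6, 6 and 15 against Pou3f1 and 2, 5 and 5 against YFP. The share over all clusters was not computed for that fit or for the fits without 1 array. These counts therefore have no background of their own. Snord53 kept its call and direction against both YFP and Pou3f1 in all 3 raised lines under every setting tried.

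Values of other gene lists are given beside these differences. The mean of 16 cell cycle genes was 9.46 to 9.64 in YFP, 9.40 to 9.55 in Pou3f1, 9.61 to 9.72 in Pou3f1;DNLhx3, 9.02 to 9.29 in Pou3f1;Hoxa5 and 9.11 to 9.15 in Pou3f1;Hoxc6. The Pou3f1-FLAG arrays differed widely from each other in that mean, at 8.85 and 10.24. The mean of 7 progenitor markers was 8.91 and 9.82 in these arrays, 9.35 to 9.40 in YFP, 9.51 to 9.56 in Pou3f1, 9.04 to 9.19 in Pou3f1;Hoxa5 and 9.10 to 9.13 in Pou3f1;Hoxc6. Nes, a progenitor filament gene, fell against YFP by 0.92 (adjusted p = 0.0061) and 0.76 (adjusted p = 0.012) in the Hoxa5 and Hoxc6 lines, while the progenitor gene Hes5 rose by 0.48 (adjusted p = 0.042) in the Hoxc6 line. The V3 interneuron marker Nkx2-2 fell by 1.23 (adjusted p = 0.013) and 1.33 (adjusted p = 0.0071). The part of cell composition in the snoRNA differences was not tested. Pou3f1 itself read 8.77 and 9.07 in Pou3f1, 9.04 and 8.86 in Pou3f1-FLAG and 8.45 and 8.48 in YFP. It read 9.19 and 9.14 in Pou3f1;Hoxa5, 10.29 and 10.33 in Pou3f1;Hoxc6, 9.66 and 9.24 in Pou3f1;DNLhx3, and 8.49 in the E3 parental array. The part of its level in the snoRNA differences was not tested.

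Genes for the proteins of snoRNA particles were measured by 21 clusters, of which 5, 4 and 4 rose against YFP in the raised lines, whereas over all clusters 6.65%, 10.2% and 12.1% were higher and 4.88%, 7.22% and 8.74% lower in the same comparisons. Nop10, a core H/ACA protein, rose by 0.49, 0.62 and 0.55, and the C/D protein Snu13 by 0.31, 0.21 and 0.27. Assembly factors Znhit3 and Znhit6 rose by 0.43 and 0.38 in Pou3f1-FLAG. Of 58 ribosomal protein genes, 13, 12 and 14 rose and 1 fell in each comparison, to be read against those percentages, with Rps19 at 0.52 and Rplp1 at 0.48 in Pou3f1-FLAG.

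Among 25 clusters of genes that span the members, 7, 7 and 8 rose against YFP in the raised lines, and 1 fell in each (backgrounds as for the particle proteins). Gas5, Rps3, Rps3a1 and Rpl27a were among those that rose, and Srcap, around Snora30, was the one that fell. Over 32 pairs of a member with a spanning gene, 12 members were called in Pou3f1-FLAG against Pou3f1, and the spanning gene was called in the same direction in 6. The counts were 12 and 4, then 15 and 5, in the other raised lines. As a description over the batch 6 arrays, r between members of 1 spanning gene was 0.946 for Snord33 and Snord35a (Rpl13a), 0.942 for Snora73a and Snora73b (Snhg3), 0.917 for Snord15a and Snord15b (Rps3), 0.744 for Snora16a and Snora44 (Snhg12) and 0.655 for Snord95 and Snord96a (Rack1). It was 0.145 for Snord42a and Snord42b (Rpl23a) and 0.069 for Snora75 and Snord82 (Ncl). The median was 0.65 over 10 such pairs and 0.48 over 1535 pairs in all.

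The clusters outside the snoRNAs whose values followed the member median most closely over the 13 CD14 arrays of batch 6 were Pus10 (r = 0.921), Abcb8 (0.921), Sf3b5 (0.913), Drg2 (0.906) and Exd2 (0.899). Pus10 encodes a pseudouridine synthase and Sf3b5 a splicing factor subunit. Over the 66 arrays of batches 1 to 7 they were a Gas5 cluster other than the one set against Snord47 (0.869), Taf1d (0.864), Cnpy2 (0.812), Rps18 (0.806) and Vaultrc5 (0.804). Gas5 and Taf1d are both hosts of intronic snoRNAs, and these correlations are descriptions chosen as the highest of all clusters.

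The E3 parental array of batch 6 lay below both YFP arrays in 44 of 56 snoRNA clusters (78.6%; background 31.2%) and above both in 4 (background 41.9%). Its median difference from the YFP mean was -0.23, against 0.02 over all clusters. With 1 array there is no replicate check. The CD2 arrays of batch 6 went otherwise: the Lhx3 array lay above both YFP arrays in 31 clusters (background 33.7%) and below both in 5 (37.2%), and the Zic1 array above in 13 (38.5%) and below in 20 (39.0%). These CD2 arrays were set against YFP arrays of the CD14 reporter, as batch 6 held no YFP CD2 array. Line and reporter cannot be told apart there.

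The YFP line with CD14 was measured in batches 6 and 7, which compares the same line between batches. In batch 7, 3 snoRNA clusters were higher (background 7.48%) and 1 was lower (background 5.03%), so both shares lay below those of all clusters. Fitted alone, the 4 YFP CD14 arrays gave 19 calls, and the share over all clusters in that fit was not computed. Snora41, in Eef1b2, was 1.24 lower on the log2 scale (-1.24 ± 0.22, SE, n = 2 and 2, adjusted p = 5.7e-04). Snord73b was 1.03 ± 0.27 higher (adjusted p = 0.010), Snord53 1.00 ± 0.24 higher (adjusted p = 0.0071) and Snord33 0.61 ± 0.20 higher (adjusted p = 0.042). The count was 2 without YFP batch 6 replicate 2 and 1 without YFP batch 7 replicate 2. Malat1 differed by 0.23 (adjusted p = 0.73), and 13 of 16 cell cycle genes were higher in batch 7, whose part in the difference was not tested. The Snord53 difference of 1.00 between batches of the control line stands beside 1.12 between Pou3f1-FLAG and Pou3f1 within batch 6.

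Within batch 7 the lines were compared with the YFP arrays of that batch, a comparison added after the data were seen. NERT (10) was induced for 10 hours and YFP for 30 hours, so line and induction time cannot be told apart there. The mean per-array member median was 8.62 ± 0.03 (SD, n = 2) in NERT (10), 8.60 ± 0.07 in NERT (30), 8.29 ± 0.15 in Pou3f1;Lhx3 and 8.35 ± 0.003 in YFP. Malat1 means were 11.92, 11.56, 11.03 and 10.97 in the same order. NERT (10) gave 3 higher clusters (background 0.679% higher and 0.197% lower) and NERT (30) gave 4 (background 4.1% and 3.13%). Limma called 0 lower in either, with 0 and 0 lower also at an unadjusted p under 0.05. Fitted alone, the batch 7 arrays gave 6 calls for NERT (10), 13 for NERT (30) and 2 for Pou3f1;Lhx3. The shares over all clusters in that fit were not computed. With the other arrays in the fit, limma called 0 in Pou3f1;Lhx3 (background 5.34%, with 2 higher at an unadjusted p under 0.05, lowest adjusted p 0.16).

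Snord61, in the RNA-binding protein gene Rbmx, read 7.29 and 7.01 in NERT (10), 7.18 and 6.95 in NERT (30), 6.63 and 6.74 in Pou3f1;Lhx3, and 6.15 and 6.40 in YFP. The NERT arrays did not overlap the others. Snord61 was 0.87 ± 0.20 (SE, adjusted p = 0.032) higher than YFP in NERT (10) and 0.79 (adjusted p = 0.014) higher in NERT (30). The other called clusters included, in both lines, the pair for Snord58b, in Rpl17, which stand for 1 gene. They read 3.228 to 4.495 in the batch 7 arrays, below the first percentile of the array on average, and whether they stand above background was not tested, so no size is given. YFP replicate 1 was the low array in 1 of them. Snord73b was 0.86 ± 0.27 (adjusted p = 0.047) higher in NERT (30). Malat1 differed by 0.95 ± 0.34 (adjusted p = 0.24) and 0.59 (adjusted p = 0.32), which did not pass in this fit and passed with the batch 7 arrays fitted alone (adjusted p = 0.0042 and 0.0037). Over all 56 clusters, 53 lay above 0 in NERT (10) (median 0.27, against -0.03 over all clusters), and the NERT (30) median was 0.19 (against -0.05). The NERT (10) count was 0 without any one of the NERT (10) or YFP arrays. That of NERT (30) was 1 without either of its arrays and 0 without YFP replicate 1.

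The CD2 lines gave 30 calls among the 56 clusters over 19 comparisons with YFP, 26 lower and 4 higher, where 1.22% of all cluster tests were called. These comparisons share the YFP arrays and adjust for batch. The calls count clusters, and Snord118 and Snora3 enter with a pair of clusters each. The count was 18 without Pou3f1 batch 1 replicate 6, YFP batch 2 replicate 2 or YFP batch 3 replicate 2. With the CD2 arrays fitted alone it was 6.

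In DNLhx3 and Notch1 ICD (30) the called snoRNAs were C/D genes and were lower than in YFP, whose arrays stood beside them in batch 3. Snord49b read 10.13 and 9.71 in DNLhx3, 10.03 and 10.06 in Notch1 ICD (30), and 10.74 and 11.26 in YFP. Snord47 read 8.01 and 7.85 in DNLhx3, 7.83 and 7.87 in Notch1 ICD (30), and 8.77 and 8.71 in YFP. In neither gene did the YFP arrays overlap the induced arrays. In DNLhx3, 6 clusters fell (background 2.01% lower), with Snord49b at -1.11 and Snord47 at -0.95. In Notch1 ICD (30), 5 fell (background 2.41%), with Snord47 at -1.02 and Snord49b at -0.98. Snord118, the RNA that acts in processing of large-subunit ribosomal RNA, fell by 0.90 in DNLhx3 and by 0.88 in Notch1 ICD (30). Its pair of clusters with identical values enters both counts, so the called clusters stand for fewer genes. Most other batch 3 lines leaned lower too. The median member difference from the batch 3 YFP arrays was -0.32 in Arid5b, -0.27 in DNLhx3, -0.18 in Notch1 ICD (30), -0.17 in Btbd3 and -0.14 in Chd5. It was -0.07 in Tox and in Vwc2, and 0.27 in Klf6. Limma called 0 clusters in Arid5b, with 0 higher and 17 lower at an unadjusted p under 0.05.

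In the CD2 Pou3f1 line 5 clusters fell (background 0.794% lower). Both Snora3 clusters fell, by 0.73 and 0.74, Snord61 by 0.71, Snord49a by 0.63 and Snord104 by 0.98. For the first Snora3 cluster the Pou3f1 and YFP arrays read 8.49 and 9.35 in batch 1, and 8.19 and 9.21 in batch 2, while the 2 Pou3f1 arrays of batch 4 read 8.30 and 8.33. Snord104 read 9.81 and 11.27 in batch 1 and 10.38 and 11.30 in batch 2. Pou3f1 stood lower in both batches that held it beside YFP, for all 5 clusters, which were called with these same arrays. Each of those batches held 1 YFP array, and that array was the highest of its batch for the first Snora3 cluster and Snord104. In batch 2, Snord104 also read below Pou3f1 in Hey1 (10.02), Klf6 (10.22) and both Zbtb7c arrays (10.06 and 10.31). It read 10.83 in H4, 10.95 in Sfmbt2 and 10.77 in Klf5. The CD14 Pou3f1 line of batch 6 had no called member against its own YFP arrays, and the difference between the reporters was not tested.

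The other CD2 calls rest on lines with no YFP array of the same batch, or on 1 batch. Notch1 ICD (10), present in batch 4 alone and induced for 10 hours against 30 hours in YFP, gave 7 lower clusters (background 0.776%). Snord95 led them (-0.98, limma adjusted p = 8.2e-05). Snord95 read 7.70 and 7.75 there and 8.21 to 8.79 in the other 7 batch 4 arrays. Hoxc6, in batch 5 alone, gave 3 lower and 1 higher (background 2.54% in either direction), with Snord82 at -2.05, Snord57 at -1.89, Snord35a at -1.58 and Snord95 at 0.72. Lhx3 gave Snora20 at 1.57 and Snora2b at 0.97 (background 1.85% higher), although its Snora20 value in batch 5, 7.07, lay within the 5.50 to 7.08 of the other batch 5 arrays. Klf5 gave Snora74a at 0.81 (background 0.271% higher), which stood 1.69 above YFP in batch 1 and 0.11 above it in batch 2.

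Snord57 and Snord82, the members of widest range, had their lowest values in batch 4, and the comparison of batch 4 with batch 3 was added after these were seen. Snord57 read 7.40 and 9.26 in Notch1 ICD (10), 8.29 in Chd5, 8.64 and 8.91 in Pou3f1, 8.84 in Arid5b, 9.26 in Hoxa5, 9.50 in Hey1 and 9.75 in the H4 parental line. In batch 3 its 15 arrays lay between 12.17 and 12.59, and in the batches other than 3, 4 and 5 between 11.76 and 13.08. Batch 5 was split, with 9.85 and 10.78 in Hoxc6, 10.65 in Zic1, 12.07 in Lhx3, 12.19 in H4 and 12.81 in Hoxa5. No batch 4 array overlapped batch 3. Arid5b read 12.37 in batch 3 and 8.84 in batch 4, and Chd5 read 12.43 and 8.29.

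With line terms in the fit, Snord57 was 11.3-fold lower in batch 4 than in batch 3 (-3.49 ± 0.25, SE, adjusted p = 4.5e-12), the lowest of all 21789 differences. Snord82 was 5.01-fold lower (-2.33 ± 0.28, adjusted p = 1.7e-07), with 6.47 to 8.81 in batch 4 and 9.29 to 10.47 in batch 3. Its batch 5 arrays, at 6.93 to 10.40, overlapped both. Snord47 was 2.64-fold lower (-1.40, adjusted p = 1.8e-06) and Snord35a 2.35-fold lower (-1.23, adjusted p = 2.0e-05). In all, 7 of 56 clusters fell (background 14%), a share below that of all clusters. Another 9 rose (background 12.2%), a share somewhat above that of all clusters. The 7 that fell were all C/D, and the difference between the classes was not tested. Those that rose were led by Snord104 (1.20, adjusted p = 5.5e-04), Snord73b (0.82) and the Snhg3 pair Snora73b (0.81) and Snora73a (0.74).

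The genes around Snord57, Snord82 and Snord47 rose. Nop56, around Snord57, read 11.85 to 12.31 in batch 4 and 11.32 to 12.14 in batch 3, and was 0.42 ± 0.11 (SE, adjusted p = 0.0037) higher in batch 4. Ncl, around Snord82, read 11.96 to 12.28 against 11.56 to 12.10 and was 0.32 ± 0.09 (adjusted p = 0.0074) higher. Gas5, around Snord47, was 0.40 (adjusted p = 0.022) higher. Of 25 spanning genes, 7 rose, and all 25 differences lay between -0.19 and 0.56. Falls were not limited to snoRNAs. Among other small structured RNA genes, the called clusters of largest difference were Rny1 (-1.44), Mir690 (-1.36), Mir377 (1.31) and Rny3 (-1.24). As a description, Snord57 and Snord82 had r = 0.853 over 66 arrays and 0.091 over the 51 arrays outside batches 4 and 5.

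Without the 6 batch 4 arrays with Hoxa5 over 11, 1 cluster was called, Snord57 (-3.03, adjusted p = 0.0037), and Snord82 at -0.82 (adjusted p = 0.40) and Snord47 at -0.72 (adjusted p = 0.50) were not. In that fit Hey1 is the only line that ties batch 4 to the other batches. Leaving out the Arid5b array of either batch 3 or batch 4 gave 10 called clusters in place of 16. Snord57 kept its call under every setting tried.

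**Figure D5:**
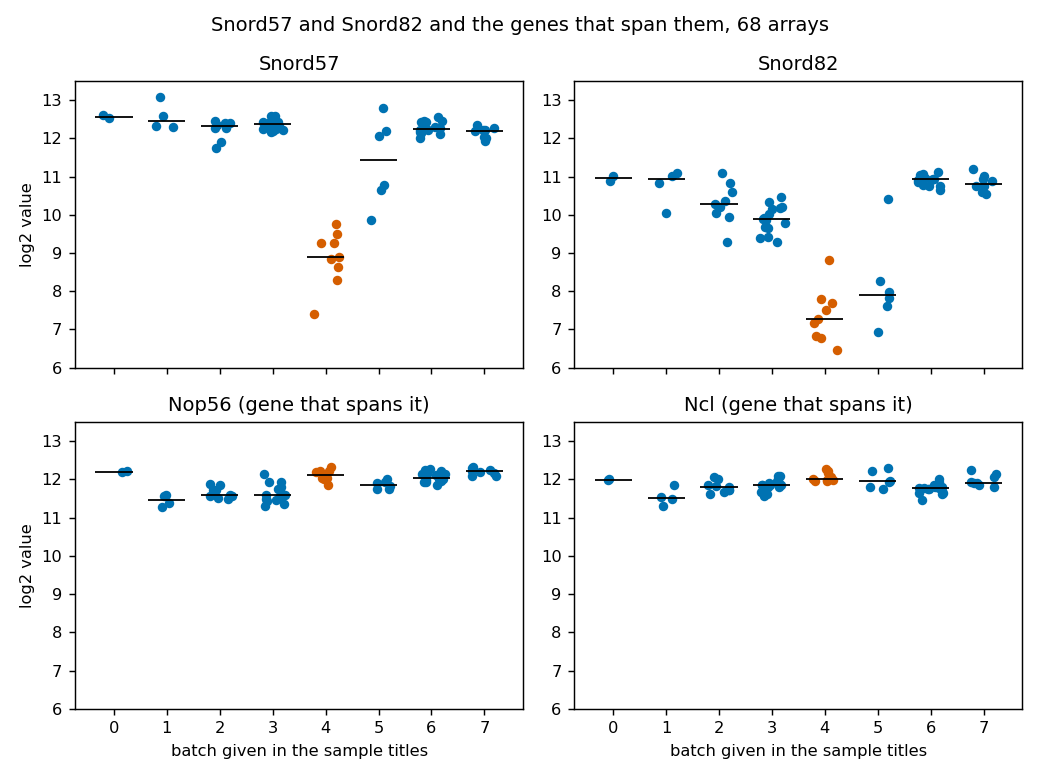
Log2 values of Snord57 and Snord82 and of the genes that span them, Nop56 and Ncl, in the 68 arrays, by the batch given in the sample titles, with bars at batch medians and batch 4 in orange. Snord57 lies at 7.40 to 9.75 in batch 4 while Nop56 stays at 11.85 to 12.31 there.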

How the data were processed

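The values were the authors' deposited log2 expression values, made, per the submitters' processing notes, with the RMA method of oligo (versions and genome build not given in the sources used here). RMA subtracts background, quantile-normalizes and summarizes probes, so values are relative within this set and folds of dim clusters are understated. Genes came from the platform annotation, and sequences and spanning genes from RefSeq (GRCm38.p6). The array number and replicate number, not depth, limit precision.

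Differences were tested with limma 3.58.1 in R 4.3.3 (lmFit and eBayes, two-sided, Benjamini-Hochberg over 21789 clusters, called at adjusted p under 0.05). The 13 CD14 arrays of batch 6 had 1 term per line (6 residual and 3.72 prior degrees of freedom). CD2 lines, the batch F-test and batch 4 against 3 came from 68 arrays with line and batch terms, and the YFP and batch 7 comparisons from 1 term per line within batch. Scripts were tested on simulated data. Python 3.11.15 made the summaries.

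Members, lists and the rule for named genes were chosen with earlier results of these data known. The rule took Malat1 and Snord73b, the 6 called members of largest difference per batch 6 comparison, members at the extremes of level and range, members sharing a host, 4 of lowest p in the other comparisons, up to 4 called genes per list and the 5 clusters most like the member median. Batch 4 and batch 7 comparisons, and members named in them, were added after the values were seen. Alternatives were other array sets, the replicate number as block, median and quantile rescaling, a filter on dim clusters, 1 cluster per gene, an intensity trend and leaving out each array.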

Additional observations from a re-analysis of the deposited data

Results flagged for a closer look

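Among 57 groups of 4 arrays tested with Dixon's ratio, which flags about 1 in 20 by chance, 2 held an array far from the others. Malat1 was 12.493 in YFP CD2 batch 2 replicate 2 and 11.835 to 11.898 in the other YFP CD2 arrays. One of the Snord58b clusters read 3.228 in YFP CD14 batch 7 replicate 1 and 3.539 to 3.546 in the others. Both arrays are controls of comparisons above.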

How the results depend on the processing

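Of 79 named results, 36 kept their direction and their side of the threshold under every setting. These included Snord53 and Malat1 in the comparisons of Pou3f1-FLAG, Pou3f1;Hoxa5 and Pou3f1;Hoxc6 with YFP and with Pou3f1.

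With all 68 arrays and line and batch terms, the called counts against YFP were 2 for Pou3f1-FLAG, 5 for Pou3f1;Hoxa5 and 5 for Pou3f1;Hoxc6, those against Pou3f1 were 6, 6 and 15, and the F-test among lines called 14. With 1 term per line within batch they were 5 for Pou3f1-FLAG and 10 for Pou3f1;Hoxc6 against YFP, 11 for Pou3f1-FLAG and 11 for Pou3f1;Hoxa5 against Pou3f1, and 17 for the F-test. Deviations of same-numbered arrays from their line means had r from -0.345 to 0.167 (15 pairs of lines, 2 over 0.1). With 2 arrays per line these values cannot show whether equal numbers share a culture or handling, and the labels do not say. A fit with the replicate number as a block called 6 for Pou3f1;Hoxa5 against YFP and 8 against Pou3f1, and moved no other count by over 1.5 times.

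Leaving out dim clusters kept 22 members. The median difference of Pou3f1-FLAG became 0.412 against YFP and 0.525 against Pou3f1, Pou3f1;DNLhx3 against YFP had 1 call, the line F-test 16, the batch F-test 18, the YFP batch comparison 1, NERT (10) 1 and NERT (30) 0. An intensity trend gave 1 call for Pou3f1;DNLhx3 against YFP. The 4 YFP CD14 arrays alone gave 19 calls between batches, and the batch 7 arrays alone gave 6 for NERT (10), 13 for NERT (30) and 2 for Pou3f1;Lhx3. The CD2 arrays alone gave 6. Without the batch 4 arrays with Hoxa5 over 11, a setting chosen after seeing the data, the batch 4 count was 1 with a median of 0.292, the CD2 count 25 and the batch F-test 28. Except where the setting itself has fewer clusters or arrays, the cause was not tested. The share of all clusters called was not computed for the alternative fits of this section, so their counts have no background.

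Leaving out 1 array gave 0 to 0 calls for Pou3f1 against YFP (median -0.2071 to -0.06338), 5 to 15 for Pou3f1-FLAG (0.1012 to 0.2558), 6 to 14 for Pou3f1;Hoxa5 (0.1746 to 0.2073), 6 to 19 for Pou3f1;Hoxc6 (0.1529 to 0.3489) and 0 to 3 for Pou3f1;DNLhx3 (-0.1785 to 0.09982). Against Pou3f1 the ranges were 6 to 25 (0.1923 to 0.3924), 7 to 25 (0.3143 to 0.4038), 14 to 30 (0.2975 to 0.4901) and 0 to 4 (-0.0003598 to 0.2292). The line F-test ranged from 21 to 35, the batch F-test from 30 to 39, the CD2 count from 18 to 45, the YFP batch count from 1 to 5 (0.08309 to 0.2646) and the batch 4 count from 10 to 18 (-0.01805 to 0.1399). NERT (10) ranged from 0 to 3 (0.2555 to 0.2838), NERT (30) from 0 to 4 (0.1524 to 0.2268) and Pou3f1;Lhx3 from 0 to 0 (-0.02868 to 0.1382).

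Reversed values, all without a call, were those of Snord73b in Pou3f1;Lhx3 against YFP (-0.01243 after quantile normalization once more, -0.06174 without YFP batch 7 replicate 1, -0.204 without Pou3f1;Lhx3 replicate 3) and in Pou3f1;DNLhx3 against YFP (0.1708 without YFP batch 6 replicate 1, 0.2506 without Pou3f1;DNLhx3 replicate 2), and of Malat1 in the latter (-0.09531 without YFP batch 6 replicate 1). Over all arrays left out in turn these ranged from -0.204 to 0.2213 and from -0.6367 to 0.2506 for Snord73b, and from -0.09531 to 0.2492 for Malat1.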

Other observations

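Other small structured RNA genes, mostly microRNA genes, were measured by 306 clusters. Against YFP, 15 rose and 7 fell in Pou3f1-FLAG, 31 and 13 in Pou3f1;Hoxa5, and 53 and 8 in Pou3f1;Hoxc6. The shares that rose were 4.90%, 10.1% and 17.3%, against 6.65%, 10.2% and 12.1% of all clusters, and in the first 2 lines they do not exceed those of all clusters. Mir376b rose by 1.20, 1.42 and 1.52 on the log2 scale, and Mir539 by 1.22 and 1.18 in Pou3f1;Hoxa5 and Pou3f1;Hoxc6. Of 8 nuclear long noncoding RNAs, 3 rose in each of these comparisons, namely Malat1, Meg3 and Rian. Meg3 also rose in Pou3f1;DNLhx3 (0.56, adjusted p = 0.019 by limma), and Airn fell in Pou3f1;Hoxa5 (-0.74, adjusted p = 0.028). Meg3, Rian and Mir376b belong to the imprinted Dlk1-Dio3 region, whose maternal transcripts carry many microRNAs and C/D snoRNAs.

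The induced E3 parental arrays of batch 0 had member medians of 8.19 and 8.23 although the median of all their clusters was 7.86 and 7.87. Snord87 read 8.28 and 8.29 in them, and Snora41 read 4.91 and 5.40.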
